A study of Caenorhabditis elegans with 6 samples.

Results

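The UDP-glucuronosyltransferase (UGT) genes of the nematode Caenorhabditis elegans were followed in whole mixed-stage embryos of 2 genotypes on Affymetrix arrays. The family was taken from the gene symbols of the deposited table: 62 genes whose symbol is ugt- and a number, of 17137 genes named on the array. They are covered by 66 features (probe sets) that name 1 gene, of 22548 features, and for each gene the brightest of its features, by mean log2 over the 6 arrays, stands for it. RefSeq names 67 ugt genes, and the other 5 are not analysed here.

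The mutant arrays hold embryos with the genotype mir-35-41(nDf50), a deletion named for the microRNA genes mir-35 to mir-41, from strain VT2935 after loss of nEx1187, whose name has the form used for extrachromosomal arrays. The control arrays hold embryos of the wild type strain N2. Both were grown at 20 degrees Celsius on plates with egg yolk, embryos were freed from mixed cultures with hypochlorite, and there were 3 arrays per genotype. The labels do not say whether replicate arrays trace to separate cultures, so a p-value measures the spread between these arrays, which may be technical. The descriptions also carry stage wording not used for nematode embryos, which was set aside for the labelled stage. In whole embryos, fewer cells of a type and less RNA per cell cannot be told apart.

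UGT enzymes sit in the membrane of the endoplasmic reticulum and move a sugar from a nucleotide sugar, UDP-glucuronic acid or UDP-glucose, onto small fat-soluble molecules, which makes them easier to dissolve and to export. In animals this is a main step of the second phase of detoxification, after oxidation by enzymes such as cytochromes P450 and before export by ATP-driven pumps. In C. elegans the family is large, many of its genes lie beside each other on the chromosomes, and several of its members are known as targets of the stress regulator SKN-1 or of nuclear hormone receptors. The substrates of most worm UGT proteins are not known, so members are named here without a role of their own.

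No UGT gene passed the test between the genotypes. Of the 62 genes 0 had an adjusted p under 0.05 by limma, with Benjamini-Hochberg adjustment over all features, against a background of 0.129% of features called. At an unadjusted p under 0.05 there were 6 members, or 9.68%, against 10.2% of all features, a share near the background. All 6 had the higher mean in the mutant, against 6.23% of all features, and 0 had the lower, against 3.97%. A difference of 2-fold or more was seen in 1 member, ugt-23, which was higher, against 3.06% of all features, and in 0 members that were lower, against 0.231%. A fit on simulated arrays of this size recovered 0 of 200 features changed by 2-fold, 195 changed by 4-fold and 200 changed by 8-fold. The largest difference in the family was 1.03 ± 0.37 (log2 difference, mutant minus wild type, ± SE), for ugt-23, so a difference of the size seen here can go uncalled at this number of arrays. The simulated noise was independent between features and of equal spread in both genotypes. The real arrays had neither trait, so the recovered counts are not the power of this comparison.

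On the arrays most UGT features were dim. Their mean log2 intensity over the 6 arrays ran from 3.32 to 10.41 with a median of 5.49, and 15 of 62, or 24.2%, were at or above the median of all features, 6.49. Brightness depends on each probe set's own probes as well as on the transcript, so it gives no order of transcript amounts between genes. The 5 members at a mean log2 of 8 or more were ugt-50 (10.41), ugt-58 (9.09), ugt-23 (8.88), ugt-57 (8.54) and ugt-52 (8.31). They were followed by ugt-60 (7.79), ugt-46 (7.34), ugt-5 (7.32), ugt-64 (7.28) and ugt-61 (6.89). At the other end 18 members were under 4.5, and the dimmest were ugt-38 (3.32), ugt-19 (3.48), ugt-27 (3.63), ugt-36 (3.67) and ugt-7 (3.69). No detection call comes with the deposited values, so whether these dim features are above background could not be read.

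**Figure D1:**
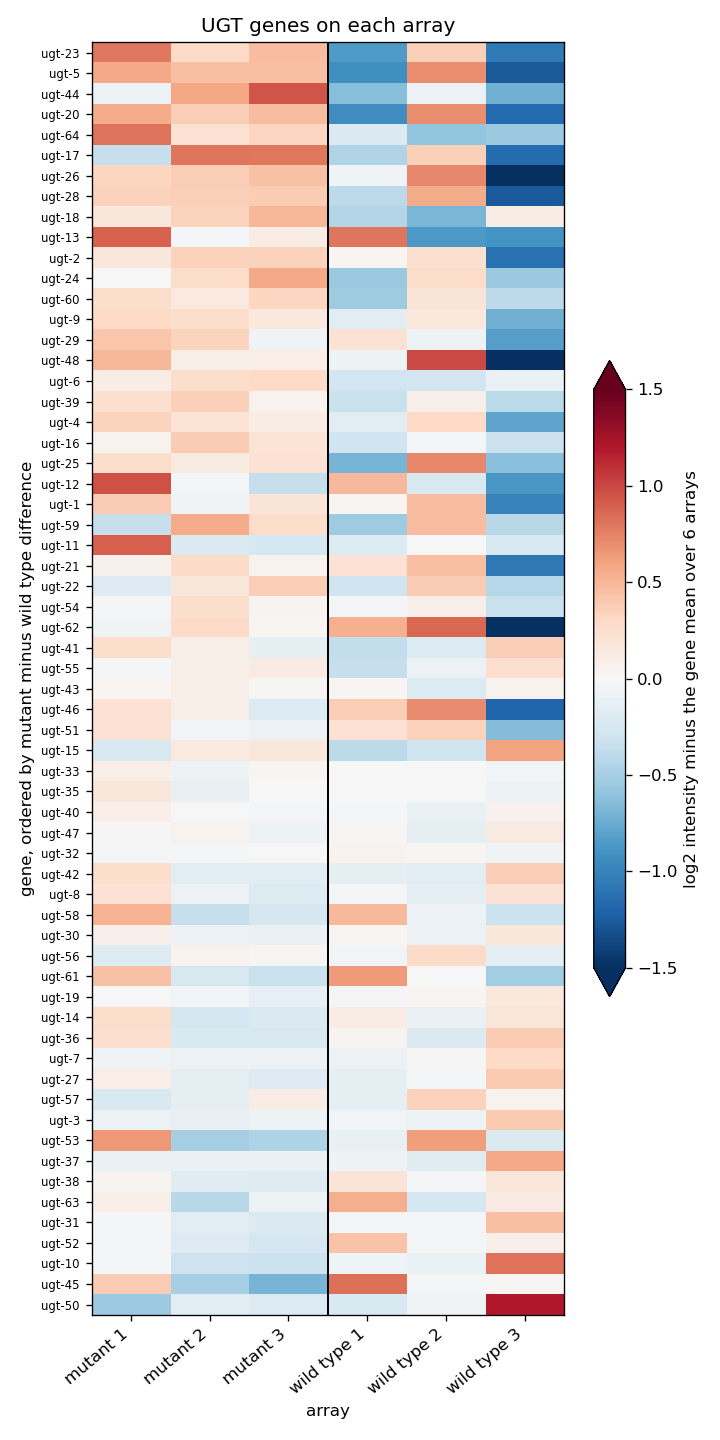
Log2 intensity of each of the 62 UGT genes on the 6 arrays, minus the gene's own mean over the 6 arrays; columns are arrays, rows are genes ordered by the difference between the genotypes, and the colour scale ends at 1.5 log2 units either way. In the upper rows the 3 mutant columns and wild type replicate 2 are mostly above the gene mean and wild type replicate 3 is below it, and in the lower rows wild type replicate 3 is often the highest.

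In 5 members all 3 mutant arrays lay on 1 side of all 3 wild type arrays. Below, values on single arrays are log2 intensities given in the order of replicates 1, 2 and 3. ugt-64, on chromosome V, was at 8.10, 7.51 and 7.61 in the mutant and 7.06, 6.69 and 6.72 in wild type. Every mutant array was thus above every wild type array, with a gap of 0.45 between the groups, the widest gap of the family. The means were 7.74 ± 0.32 in the mutant and 6.83 ± 0.20 in wild type (± SD, n = 3 arrays each), and the difference of 0.91 ± 0.21 had the lowest p of the family (limma, adjusted p = 0.245).

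ugt-18 was at 5.41, 5.57 and 5.74 in the mutant and 4.79, 4.55 and 5.34 in wild type. The groups parted by 0.06, with wild type replicate 3 next to the mutant arrays, and the difference was 0.68 ± 0.23 (limma, adjusted p = 0.442). Its neighbour on the chromosome, ugt-16, was at 4.62, 4.95 and 4.77 in the mutant and 4.27, 4.55 and 4.24 in wild type. Here wild type replicate 2 was the closest to the mutant, 0.07 below it, and the difference was 0.43 ± 0.18 (limma, adjusted p = 0.482). ugt-6 was at 5.36, 5.51 and 5.56 in the mutant and 4.97, 4.96 and 5.16 in wild type, with a gap of 0.20. Its arrays were among the most alike within each genotype, with ranges of 0.20 in the mutant and 0.20 in wild type, and the difference was 0.44 ± 0.16 (limma, adjusted p = 0.445).

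The single member with all mutant arrays below all wild type arrays was ugt-52, at 8.28, 8.11 and 8.05 in the mutant and 8.73, 8.29 and 8.38 in wild type. Mutant replicate 1 and wild type replicate 2 were nearly level, 0.0046 apart, and the difference was -0.32 ± 0.18 (limma, adjusted p = 0.563). Members with no overlap and the higher level in the mutant were 4 of 62, or 6.45%, against 6.16% of all features. In the other direction there was 1 of 62, or 1.61%, against 9.37%.

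**Figure D2:**
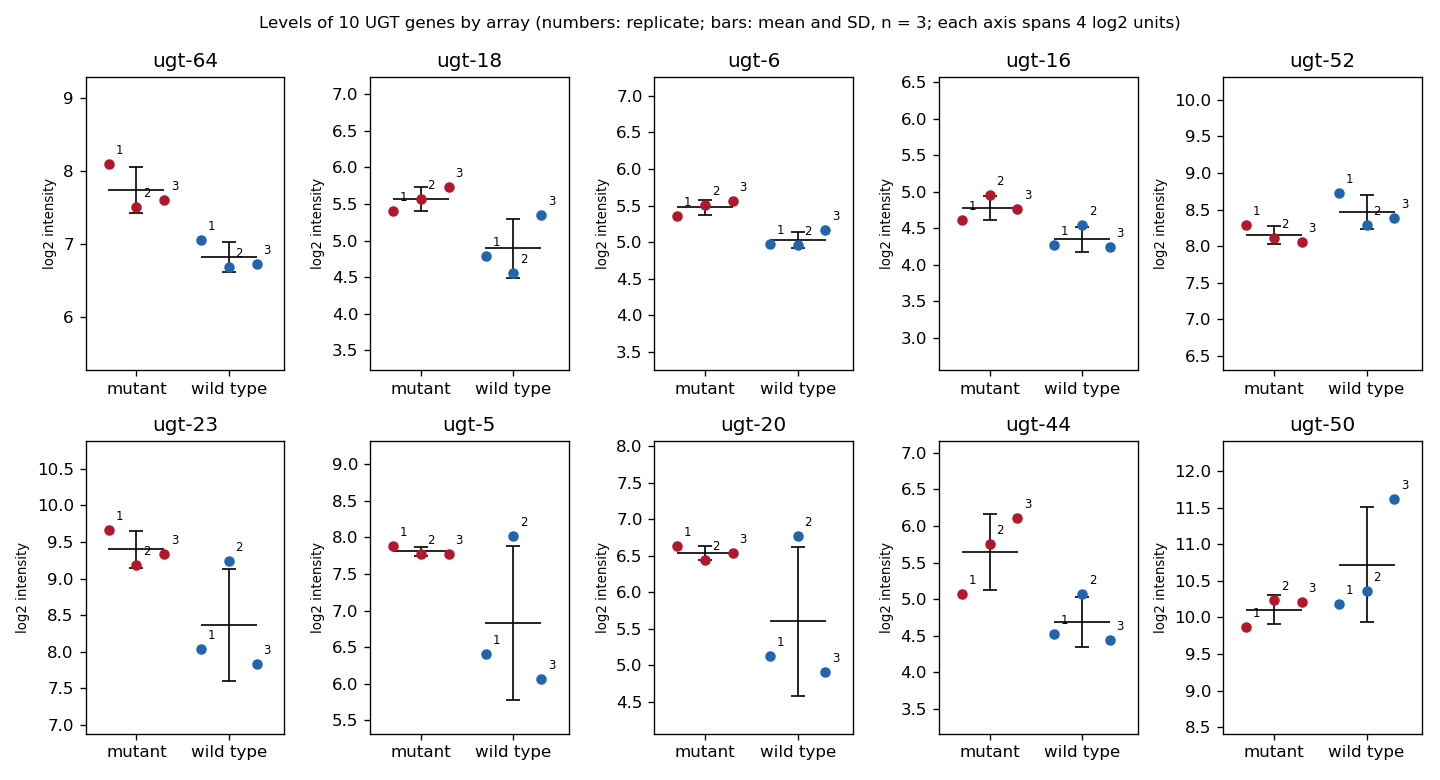
Log2 intensity of 10 UGT genes on each array, mutant in red and wild type in blue, with the replicate number beside each point and bars for the mean and SD of 3 arrays; every panel spans 4 log2 units. In the first 5 panels the groups do not overlap, and in ugt-23, ugt-5 and ugt-20 wild type replicate 2 sits at the mutant level while wild type replicates 1 and 3 are lower.

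ugt-23, ugt-5, ugt-44 and ugt-20 had the largest mean differences, ahead of ugt-64, and did not part the genotypes. ugt-23, an X-linked gene, was at 9.67, 9.18 and 9.34 in the mutant and 8.03, 9.24 and 7.83 in wild type. Wild type replicate 2 was inside the mutant range and the other wild type arrays were more than 1 log2 unit below the mutant arrays, and the fit gave 1.03 ± 0.37 (limma, adjusted p = 0.445). ugt-5 was at 7.88, 7.77 and 7.77 in the mutant and 6.41, 8.02 and 6.06 in wild type, a difference of 0.98 ± 0.46. ugt-20 was at 6.63, 6.44 and 6.54 in the mutant and 5.14, 6.77 and 4.91 in wild type, a difference of 0.94 ± 0.45. In both, the mutant arrays spanned under 0.2 log2 units, wild type replicate 2 was the highest of the 6 arrays, and wild type replicates 1 and 3 were the lowest. The limma fit gave them an adjusted p = 0.514 and an adjusted p = 0.518.

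The same order of the wild type arrays was seen in further members. ugt-26 was at 6.58, 6.63 and 6.69 in the mutant and 6.20, 6.97 and 4.45 in wild type. ugt-28, its neighbour on chromosome I, was at 5.94, 5.96 and 5.99 in the mutant and 5.21, 6.16 and 4.35 in wild type. In this pair wild type replicate 3 was far below the rest, wild type replicate 1 was between, and wild type replicate 2 was the highest of all arrays. The differences were 0.76 ± 0.56 and 0.72 ± 0.41 (limma, adjusted p = 0.607 and adjusted p = 0.560). ugt-2 was at 5.39, 5.57 and 5.57 in the mutant and 5.25, 5.46 and 4.11 in wild type, with wild type replicate 2 inside the mutant range, and is named after its values were seen, as the next below the 10 largest differences.

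Wild type replicate 2 was the highest wild type array in 28 members, or 45.2%, against 26.3% of all features. Over the family, wild type replicates 1 and 3 were both below all mutant arrays in 22 members. In 4 of them wild type replicate 2 was below the mutant too (ugt-64, ugt-18, ugt-6 and ugt-16), in 11 it was within the mutant range and in 7 it was above all mutant arrays. Without wild type replicate 2 the share of members with no overlap and the higher level in the mutant was accordingly 35.5%, against 16.9% of all features, and 5 members, or 8.06%, were lower with no overlap, against 27.6% of all features. In that fit 4 members passed the threshold, ugt-20 (1.52 ± 0.17), ugt-5 (1.57 ± 0.18), ugt-23 (1.47 ± 0.20) and ugt-25 (0.87 ± 0.15), given as log2 difference ± SE. In limma their values in that order were adjusted p = 0.00974, adjusted p = 0.00989, adjusted p = 0.0153 and adjusted p = 0.0303. They were 6.45% of the family, against 5.72% of all features called without that array, and all 4 were higher, against 4.86%. The share called was thus near the background. Without wild type replicate 3, 7 members were higher with no overlap (11.3%, against 9.03%) and 4 lower (6.45%, against 14.3%). Without mutant replicate 1, 7 were higher (11.3%, against 12.9%) and 9 lower (14.5%, against 23.4%). Arrays weighted by their fit to the groups gave 13 members called in either direction, or 21.0%, against 16% of all features. The weights in replicate order were 0.46, 4.59 and 4.88 for the mutant arrays and 1.77, 0.38 and 0.14 for the wild type arrays. That fit thus leans on mutant replicates 2 and 3 and on wild type replicate 1. ugt-25, which the rule for named genes did not take in, was at 5.96, 5.83 and 5.92 in the mutant and 5.01, 6.43 and 5.07 in wild type with all arrays.

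Beside this pattern, wild type replicate 2 resembled the mutant arrays over all features. Its correlations with the mutant arrays were 0.984 to 0.987, and those with the other wild type arrays were 0.976 (replicate 1) and 0.949 (replicate 3). Wild type replicate 3 also stood apart, at 0.944 to 0.954 with the mutant arrays and 0.971 with wild type replicate 1. Wild type replicate 1 was at 0.969 to 0.974 with the mutant arrays. On the first principal component, which held 58.5% of the variance, wild type replicate 2 scored -22.7, inside the mutant range of -36.8 to -14.7. Wild type replicates 1 and 3 scored 28.5 and 78.6, so replicate 3 lay farthest out. Mutant replicates 2 and 3 were close to each other (r = 0.998). Markers of maternal RNA split the arrays in a like way: all 9 maternal genes, which include the eggshell gene cpg-2 and the germline regulators oma-1 and pie-1, had the lower mean in the mutant, with a median difference of -0.55 and 0 called. Set to the gene means, their medians in replicate order were -0.27, -0.18 and -0.26 for the mutant arrays and 0.39, -0.28 and 0.68 for the wild type arrays. Summed over the list, linear intensity ran from 13089 to 14116 in the mutant and from 13414 to 23921 in wild type. The part of the maternal RNA or of single arrays in the UGT differences was not tested.

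As a family, UGT genes had 38 members with a positive difference and 24 with a negative one, that is 61.3% positive against 37.8% of all features. The median difference was 0.11 (quartiles -0.10 and 0.45), and that of all features was -0.10. These signs are relative to the authors' scaling. Centring each array on its median moved every difference by the same -0.13, to a median of -0.22 for all features and -0.02 for UGT genes. It thus moved the zero line and left the distance between the family and all features unchanged. In the 47 members below the median brightness the median difference was 0.13, against -0.13 for all features below it. In the 15 brighter members it was 0.07, against -0.0094 for all brighter features.

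**Figure D3:**
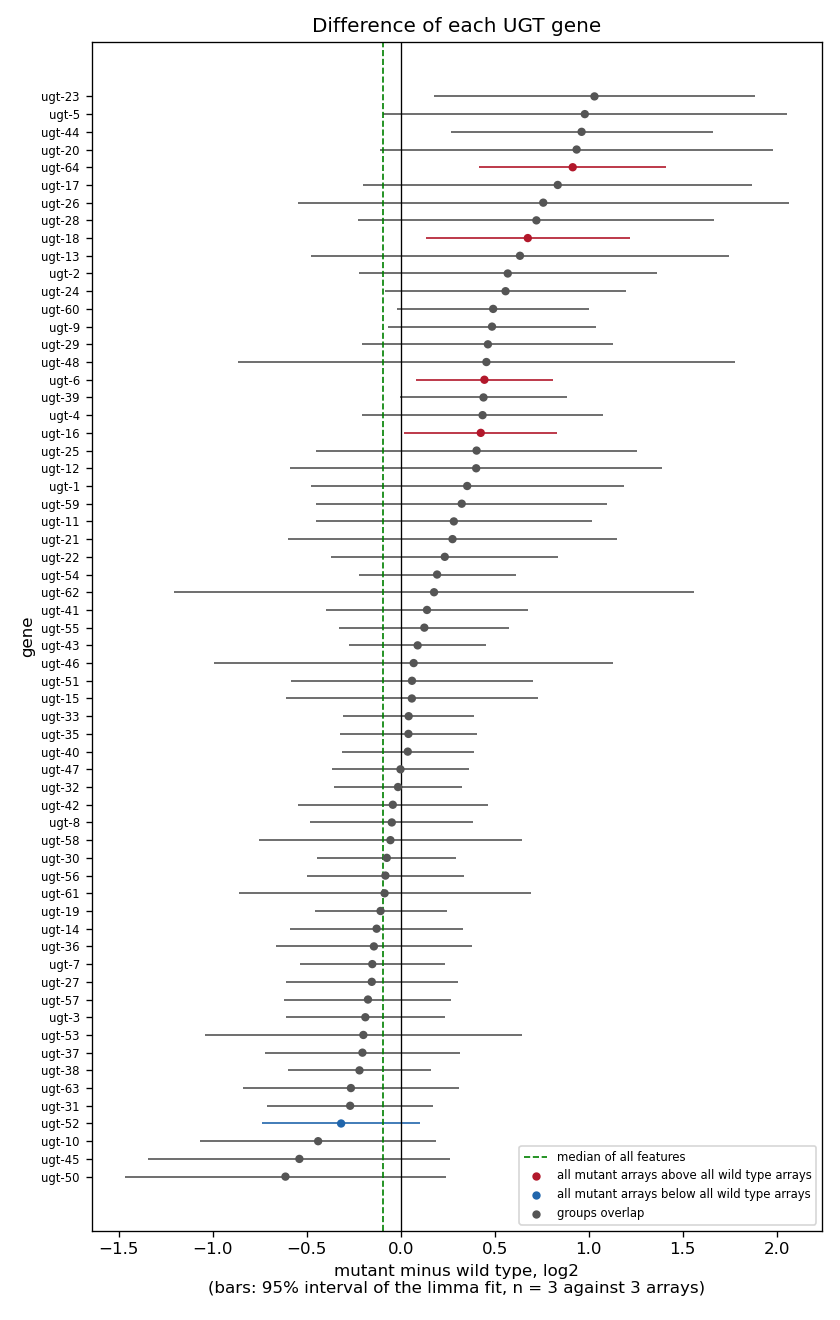
Difference between mutant and wild type for each of the 62 UGT genes (x axis, log2; points with the 95% interval of the limma fit, n = 3 against 3 arrays), ordered by size. Red points have all mutant arrays above all wild type arrays, the blue point is the reverse, and the dashed line is the median of all features, -0.10. The points run from -0.61 to 1.03, and 6 intervals lie above 0 while 0 lie below it.

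Wild type replicate 3 was the lowest of the 6 arrays in 25 members, or 40.3%, against 24.6% of all features. It was the highest in 15 members, or 24.2%, against 41.9% of all features. With each gene set to its own mean, the family median in replicate order was 0.14, 0.05 and 0.02 for the mutant arrays. For the wild type arrays it was -0.06, -0.0019 and -0.22, while all features gave 0.03, -0.05 and 0.11. Among the 15 brighter members the deviation of wild type replicate 3 was -0.52 and those of wild type replicates 1 and 2 were 0.22 and 0.20. Without wild type replicate 3 the family median was 0.06, against -0.04 for all features, and 38 members were again positive.

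The spread among wild type arrays was wide for many members. It was at least 1 log2 unit in 20 of 62 genes, and a range of that size was seen among the mutant arrays in 6. The wild type range was the larger one in 49 members, or 79.0%, against 78.3% of all features. The widest was that of ugt-48, at 6.82, 6.41 and 6.42 in the mutant and 6.24, 7.31 and 4.73 in wild type. Next came ugt-26, described above, and ugt-62, at 6.73, 7.08 and 6.81 in the mutant and 7.31, 7.65 and 5.13 in wild type. In these wild type replicate 3 was the lowest array and wild type replicate 2 the highest. ugt-46 was at 7.56, 7.44 and 7.13 in the mutant and 7.71, 8.06 and 6.16 in wild type, in the same order, with a difference of 0.07 ± 0.46. The difference between genotypes was smaller than the range within wild type in 56 of 62 members, or 90.3%, against 89.4% of all features.

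The brightest member, ugt-50, ran the other way. Its brightest feature was at 9.88, 10.24 and 10.21 in the mutant and 10.19, 10.36 and 11.62 in wild type. Wild type replicate 3 was over 1 log2 unit above all other arrays, the other wild type arrays were within or just above the mutant range, and the difference of -0.61 ± 0.37 was the lowest of the family (limma, adjusted p = 0.577). Behind it came ugt-45, at 6.89, 6.01 and 5.81 in the mutant and 7.33, 6.47 and 6.52 in wild type, with -0.54 ± 0.35 (limma, adjusted p = 0.585), and ugt-10, at 4.76, 4.48 and 4.46 in the mutant and 4.73, 4.69 and 5.61 in wild type, with -0.44 ± 0.27. In ugt-45 both groups were spread over more than 0.8 log2 units and overlapped, and in ugt-10 wild type replicate 3 alone was high. The next lowest after ugt-52 were ugt-31 (-0.27 ± 0.19), ugt-63 (-0.27 ± 0.25), ugt-38 (-0.22 ± 0.16), ugt-37 (-0.20 ± 0.22), ugt-53 (-0.20 ± 0.36) and ugt-3 (-0.19 ± 0.18).

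Mutant replicate 1 also stood apart from the other mutant arrays in some members, in both directions. It was at least 0.5 log2 units above both others in 7 members, or 11.3%, against 5.43% of all features. It was as far below them in 3 members, or 4.84%, against 7.75%. Of the genes named for this, ugt-11, ugt-12 and ugt-59 were chosen after their values were seen. ugt-12 was at 7.78, 6.81 and 6.49 in the mutant and 7.32, 6.60 and 5.96 in wild type. ugt-11 was at 7.12, 6.0 and 5.96 in the mutant and 6.02, 6.22 and 5.99 in wild type. ugt-13, from the same stretch of chromosome V, was at 6.96, 6.05 and 6.19 in the mutant and 6.89, 5.22 and 5.19 in wild type, so mutant replicate 1 was near wild type replicate 1 and the remaining arrays were lower in both genotypes.

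The other 4 members with a high mutant replicate 1 were ugt-58, ugt-61, ugt-53 and ugt-45. ugt-58 was at 9.61, 8.74 and 8.83 in the mutant and 9.57, 9.00 and 8.77 in wild type and ugt-61 at 7.33, 6.65 and 6.55 in the mutant and 7.52, 6.90 and 6.36 in wild type. In 5 of the 7 wild type replicate 1 was also the highest wild type array. The genotypes overlapped in all 7, and the differences of ugt-58 and ugt-61 were -0.06 ± 0.30 and -0.09 ± 0.33. The 3 members with a low mutant replicate 1 were ugt-44, ugt-17 and ugt-59. ugt-44 was at 5.07, 5.75 and 6.11 in the mutant and 4.53, 5.07 and 4.45 in wild type, so mutant replicate 1 was level with wild type replicate 2. Its difference was 0.96 ± 0.30 (limma, adjusted p = 0.394). ugt-17 was at 5.38, 6.53 and 6.52 in the mutant and 5.27, 6.09 and 4.57 in wild type, with 0.83 ± 0.44 (limma, adjusted p = 0.543).

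A further set of members varied little within each genotype. In 5 genes both groups had ranges under 0.2 log2 units: ugt-6, whose genotypes did not overlap (above), ugt-33, ugt-40, ugt-32 and ugt-19, of which ugt-33, ugt-40 and ugt-32 were chosen after their values were seen. ugt-32 was at 5.49, 5.49 and 5.52 in the mutant and 5.56, 5.53 and 5.46 in wild type, with a difference of -0.01 ± 0.15. ugt-33 was at 5.58, 5.40 and 5.51 in the mutant and 5.47, 5.47 and 5.43 in wild type, with 0.04 ± 0.15. The 95% interval of the difference in intensity lay within 1 log2 unit of 0 in 33 of 62 members, each read on its own. All 18 members under a mean log2 of 4.5 are among these 33. No detection call comes with any value, so the interval bounds a difference in intensity and not one in transcript. This limit holds for the 18 and for other dim members, such as ugt-32 and ugt-33, at means of 5.51 and 5.48. The bright X-linked gene ugt-57 was also among the 33, at 8.32, 8.39 and 8.65 in the mutant and 8.40, 8.88 and 8.60 in wild type. Its interval ran from -0.62 to 0.27. ugt-60 was just outside, at 8.05, 7.94 and 8.11 in the mutant and 7.25, 7.98 and 7.39 in wild type, with an interval from -0.02 to 1.00.

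Genes with more than 1 feature allow a look at agreement between probe sets. The 3 features of ugt-50 did not agree. The second, at a mean of 9.06, had all mutant arrays below all wild type arrays and a difference of -0.26 ± 0.17. Its mutant replicate 2 (9.035) and wild type replicate 2 (9.040) were nearly level. The dimmest, at a mean of 5.95, was at 6.02, 6.27 and 6.15 in the mutant and 5.95, 6.0 and 5.32 in wild type, so here the mutant arrays were all above, with a difference of 0.39 ± 0.22. In limma these had an adjusted p = 0.595 and an adjusted p = 0.557. Wild type replicate 3 was the highest array on the 2 brighter features and the lowest on the dimmest. The 2 features of ugt-46 gave 0.07 ± 0.46 and -0.12 ± 0.39, and those of ugt-48 gave 0.46 ± 0.57 and -0.01 ± 0.39, with wild type replicate 2 highest and wild type replicate 3 lowest on all 4. ugt-22 has a feature of its own with 0.23 ± 0.26 and one that it shares with Y43D4A.2, which cannot tell them apart, with 0.13 ± 0.16.

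Most UGT genes lie on chromosome V, with 39 of 62 there. Chromosome IV has 11, chromosome I has 5, the X has 4, chromosome III has 2 and chromosome II has 1. By gene order in RefSeq, 34 members form 10 clusters in which neighbours are separated by at most 5 other protein-coding genes, and 28 stand alone. The members in clusters had a median difference of 0.32, with 23 of 34 positive, and those outside had one of 0.04, with 15 of 28 positive. Signal can be shared between features of similar neighbours, and this could not be read, since no probe sequences are used here. In all, 12 members are represented by features of the kind marked by the manufacturer as matching several transcripts. Their median difference was 0.45, and that of the other 50 was 0.05. The 12 were also brighter, at a median mean log2 of 7.05 against 5.23. Their median wild type range was wider, at 1.02 against 0.61. The part of each in the difference was not tested.

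Features of neighbours varied in brightness and in estimated difference, and whether neighbours differ from each other was not tested. Of those contrasted below, ugt-3, ugt-27, ugt-43 and ugt-19 had a mean log2 under 4.5, and detection could not be read for any feature. The largest cluster holds 7 members in the order ugt-12, ugt-11, ugt-9, ugt-10, ugt-8, ugt-14 and ugt-13, with mean levels from 3.96 to 6.83 and differences from -0.44 (ugt-10) to 0.63 (ugt-13). The cluster of 6, ugt-40, ugt-37, ugt-38, ugt-39, ugt-41 and ugt-36, was dim throughout, at 3.32 to 4.34, with differences from -0.22 to 0.44. In the cluster of ugt-5, ugt-4, ugt-6 and ugt-3 the first 3 had differences of 0.98, 0.43 and 0.44 and ugt-3, the dimmest at a mean of 4.09, had -0.19. The 3 members ugt-18, ugt-16 and ugt-15 held 2 of the 4 genes with no overlap and the higher level in the mutant. On chromosome I, ugt-26, ugt-28 and ugt-25 had differences of 0.76, 0.72 and 0.40, and ugt-27, between the first and the second and at a mean of 3.63, had -0.15. The pair ugt-43 and ugt-44 had 0.09 and 0.96, and the pair ugt-19 and ugt-20 had -0.11 and 0.94. The cluster lists name all their members, whatever their values.

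**Figure D4:**
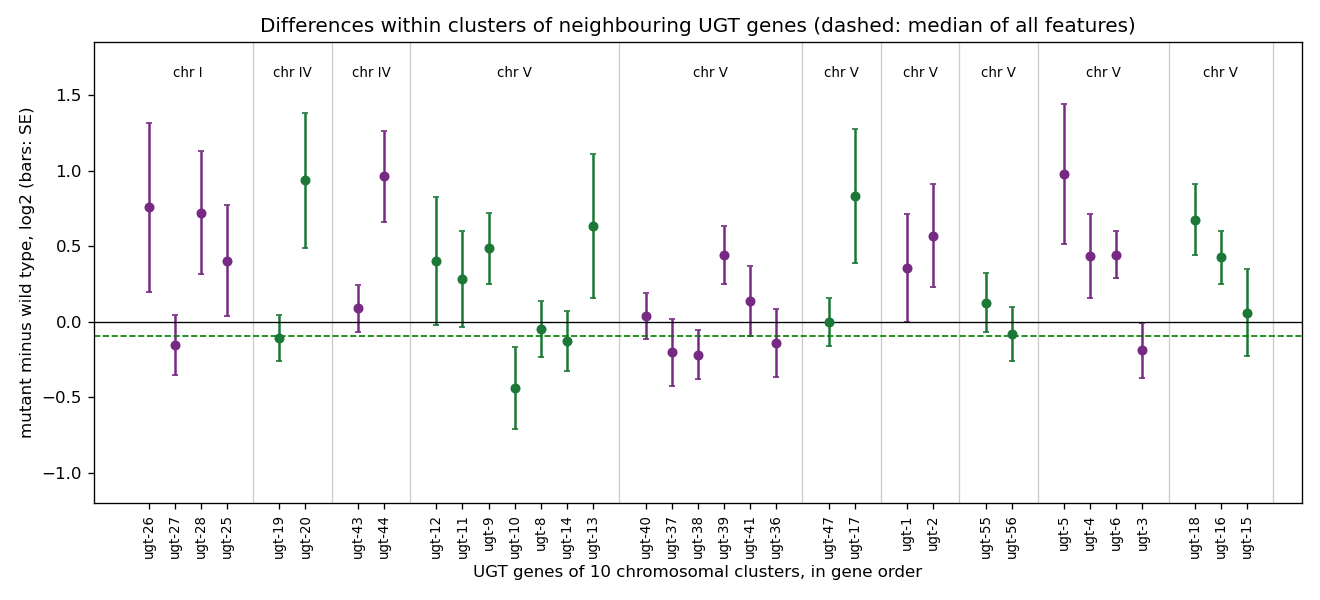
Difference between mutant and wild type (y axis, log2, points with SE, n = 3 against 3 arrays) for the 34 UGT genes that lie in 10 clusters of neighbouring genes, in chromosomal order, with the chromosome above each cluster and colours alternating between clusters. Within most clusters the points are spread, for example from -0.44 to 0.63 in the cluster from ugt-12 to ugt-13, and the dashed line is the median of all features, -0.10.

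Genes that make, carry or use nucleotide sugars, control the response to foreign compounds or export the products were read from lists chosen by role. Over all features 0.129% were called, 37.8% had a positive difference and the median was -0.10. At that share, 0 called in lists this short, here and below, does not set them apart from all features. Of the 9 measured sugar nucleotide genes 0 were called, 5 had a positive difference and the median was 0.05. The smallest p belonged to rml-1 (-0.46 ± 0.20), sqv-1, which turns UDP-glucuronic acid into UDP-xylose (0.77 ± 0.37), and hut-1, a nucleotide sugar transporter (-0.39 ± 0.21). sqv-4, the UDP-glucose dehydrogenase that makes UDP-glucuronic acid, was at 10.67, 10.21 and 9.92 in the mutant and 10.66, 10.61 and 9.74 in wild type, a difference of -0.07 ± 0.30, and is named for its role after its values were seen. sqv-1 was at 7.57, 7.18 and 7.32 in the mutant and 6.68, 7.33 and 5.76 in wild type, so wild type replicate 2 was again at the mutant level.

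Of the 14 regulators 0 were called, against 0.129% of all features, and 7 had a positive difference, against 37.8%. Their median was 0.01, against -0.10. The leading ones were aha-1, the partner of the aryl hydrocarbon receptor (0.63 ± 0.29), the nuclear hormone receptor nhr-86 (-0.49 ± 0.24) and the steroid receptor daf-12 (0.66 ± 0.36). The aryl hydrocarbon receptor ahr-1, named after its values were seen, was at 7.71, 7.61 and 7.55 in the mutant and 7.83, 7.92 and 7.75 in wild type, a difference of -0.21 ± 0.15 (limma, adjusted p = 0.600). It was lower on all mutant arrays, the 1 regulator of 14 without overlap in either direction, a share of 7.14% against 9.37% of all features that were lower without overlap. The detoxification regulator skn-1, named after its values were seen, was at 8.17, 9.31 and 9.16 in the mutant and 8.94, 8.35 and 8.83 in wild type, a difference of 0.17 ± 0.32. The 28 transporters of the pgp, mrp and haf families, ATP-driven pumps of which some export conjugated compounds, had 0 called, 14 positive and a median of -0.0010. haf-6 was at 6.44, 6.34 and 6.22 in the mutant and 6.98, 7.0 and 7.13 in wild type, below wild type on all mutant arrays, with -0.70 ± 0.16 (limma, adjusted p = 0.214). The groups did not overlap in mrp-2 (0.56 ± 0.19) and mrp-3 (0.63 ± 0.22) either, both with the higher level in the mutant. In all, 3 of 28 transporters were higher without overlap, or 10.7%, against 6.16% of all features, and 2 were lower, or 7.14%, against 9.37%. In limma the lowest value among the sugar nucleotide genes was an adjusted p = 0.496, and among the regulators it was an adjusted p = 0.508.

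Markers of the embryo and of other material set these values in context, with 0 called in each list, against 0.129% of all features. The 8 measured regulators of embryonic fates, such as end-1 and pha-4, had mean log2 intensities between 4.69 and 10.18 and a median difference of -0.26. The 13 intestinal genes, which include the transcription factors elt-2 and elt-7, had 3 positive differences and a median of -0.16. Their summed linear intensity was between 12231 and 18036 in the mutant and between 13741 and 20576 in wild type. Median differences were -0.04 for 4 epidermal, 0.01 for 3 muscle, -0.16 for 3 neuronal and 0.11 for 2 pharyngeal markers. The mutant arrays were not alike in these lists. Set to the gene means, the medians on mutant replicates 1, 2 and 3 were -0.86, 0.77 and 0.48 for muscle. They were -0.75, 0.49 and 0.42 for pharynx, -0.14, -0.0025 and -0.07 for epidermis and 0.13, -0.09 and -0.13 for neurons. Median differences of 7 adult markers, the vitellogenins and col-19, and of 6 sperm markers were -0.29 and -0.31. Both lists deviated most on wild type replicate 3, by 0.55 and 0.44. The adult markers were at means of 3.47 to 6.37 and the sperm markers at 3.84 to 7.29. Their part in the UGT values was not tested.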

How the data were processed

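Total RNA of 6 embryo samples, 3 per genotype, was extracted with Trizol and amplified and biotin-labelled in a single round, per the labels' protocols. The authors deposited normalized intensity per feature on a linear scale, and a series table of the same values as log2. Affymetrix Expression Console was the software, per the submitters' processing notes. Which version, background correction, normalization and summary were used is not given in the sources used here. Normalization removes a shift shared by most genes, so differences are relative to the other features. The number of table columns without a sample was 0.

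The log2 of the linear intensity was taken with no constant added and differed from the deposited log2 table by at most 5.63e-06. Of 22625 features, 77 array controls were left out and the other 22548 entered the test, dim ones included. The number of arrays, 3 per group, limits the precision. The test was limma 3.58.1 (R 4.3.3; lmFit, then eBayes), two-sided and without a block. Benjamini-Hochberg adjustment ran over all features, at a threshold of 0.05. The same code was first tested on simulated data for all 22548 features, drawn from their real means and spreads, with 200 of them changed.

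A gene identifier beside a symbol was not counted as a second gene. RefSeq names for assembly WBcel235 gave chromosomes and gene order, and its coordinates were not used. The family, the lists and the tests were chosen with earlier results of these data known, and no list was given a test. The text names every member with no overlap, the 10 largest differences each way, the 10 brightest and 5 dimmest members, the 5 widest wild type ranges, every gene with several features, and up to 3 genes of each pathway list with the smallest p. Nothing in the labels pairs same-numbered arrays of the 2 genotypes, and their deviations correlated at -0.03, 0.07 and -0.18. These values cannot show whether such arrays were handled together. Alternatives left out single arrays, used the replicate number as a block, the log2 table, renormalization, centring, a filter on dim features, 16 added before log2, a prior that is robust and follows intensity, array weights (estimated gene by gene), 1 feature per gene, and the mean of a gene's features. Averaging mutant replicates 2 and 3 as 1 sample was added after seeing the data.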

Additional observations from a re-analysis of the deposited data

How the results depend on the processing

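The number of arrays, 3 per group, limits the precision. The 0 UGT members called became 6 at an unadjusted p, 13 with array weights and 0 to 4 with single arrays left out (4 without wild type replicate 2), and stayed at 0 in the other 15 of 17 alternatives. The replicate block called 0 members and 19 features in place of 29. Features called were also 8 with 16 added, 3608 with array weights, 46 with the robust prior, 50 after centring, 3 after renewed quantile normalization, 0 with mutant replicates 2 and 3 averaged (1059 at an unadjusted p by limma) and 0 to 1289 with single arrays left out. The 4 members higher with no overlap (6.45%, against 6.16% of all features) became 1 of 15 without dim features (6.67%, against 8.20%), 8 with the averaged mutant arrays (12.9%, against 7.38%) and 6 to 22 with single arrays left out (9.68% to 35.5%, against 7.10% to 16.9%). The 1 lower member (1.61%, against 9.37%) became 5 after centring (8.06%, against 15.2%) and 1 to 9 with single arrays left out (1.61% to 14.5%, against 10.9% to 27.6%). The family median stayed between 0.0049 and 0.18 except after centring, at -0.02. Of 33 named members 21 kept their sign throughout. Uncalled differences that turned sign with array weights were those of ugt-13 (-0.34), ugt-46 (-0.38), ugt-57 (0.021) and ugt-62 (-0.30). That of ugt-46 also turned with its features averaged (-0.025), after centring (-0.060) and after quantile normalization (-0.021), as did ugt-19 in the last (0.0077). With averaged mutant arrays ugt-58 (0.082) and ugt-61 (0.035) turned. With single arrays left out, the ranges of the members that turned were ugt-27 (-0.27 to 0.0017, turned without wild type replicate 3), ugt-36 (-0.31 to 0.012, turned without wild type replicate 3), ugt-37 (-0.35 to 0.028, turned without wild type replicate 3), ugt-46 (-0.51 to 0.44, turned without mutant replicate 1 or wild type replicate 3), ugt-48 (-0.23 to 1.06, turned without wild type replicate 3), ugt-53 (-0.58 to 0.062, turned without wild type replicate 2), ugt-58 (-0.33 to 0.17, turned without mutant replicate 2, mutant replicate 3 or wild type replicate 1), ugt-61 (-0.37 to 0.21, turned without mutant replicate 2, mutant replicate 3 or wild type replicate 1) and ugt-62 (-0.61 to 0.65, turned without wild type replicate 3). The cause was not tested.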
